A study of Oryza sativa with 6 samples.

Results

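The first 2.5 Mb of rice chromosomes 11 and 12 are known as 2 copies of one recent segmental duplication. All peaks of a deposited PIF4-GFP list that lie on these chromosomes and end at or before position 2500000 were taken, which gave 547 of 29513 peaks. Of these, 276 lie on chromosome 11 at 237 loci and 271 on chromosome 12 at 236 loci. The samples of the series are labelled as leaves of 3-week-old rice plants grown in pots under fluctuating light with drought. No source used here says whether the peaks come from the same plants. A PIF4-GFP overexpression line (3 libraries) was set against a GFP mock (3 libraries), and both groups had the same light and drought. No label names the promoter that drives the transgene, the number of lines or any pooling of plants. The series is described as chromatin immunoprecipitation, while its sample labels describe total RNA from leaves, so the peak list and the expression tables are treated as separate readouts.

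A segmental duplication places a run of genes in the genome a second time, in the same order and orientation, and single genes are then lost from one copy or the other. Genes that remain in both copies are paralogs, and near the end of chromosomes 11 and 12 of rice many of them are still nearly identical. PIF4 is a basic helix-loop-helix transcription factor that acts downstream of phytochrome and binds near gene starts, and antibodies to the GFP tag can bring it down together with bound DNA.

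The peak list gives a position, a class, a locus number and a distance from the peak centre to the annotated gene start, with no score and no mock list beside it. Peak names begin with PIF4-GFP1, and no source used here says which library or libraries they stand for. There is thus 1 list and no replicate error for any peak, and the 95% intervals below cover counting error only. How reads that match both copies were placed is equally unstated, so that values of near-identical genes in the 2 copies are uncertain, and the part of such reads in any likeness between the copies was not tested. No sequence of a peak is shown because no genome of the build was used.

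Both copies were rich in listed peaks, and their overall density was alike. The end of chromosome 11 held 110.4 peaks per Mb (Poisson 95% interval 97.8 to 124) and that of chromosome 12 held 108.4 (95.9 to 122), so the copies did not differ beyond counting error. They rank 3 and 4 of the 12 chromosome ends of the same length, behind chromosome 2 with 293 peaks and chromosome 3 with 278. The ends of the other 10 chromosomes together held 86.5 peaks per Mb (82.9 to 90.2). The rest of chromosome 11 held 59.3 per Mb and the rest of chromosome 12 held 55.4, both under the 79.1 of the whole list. The 2 copies are therefore dense stretches on chromosomes that are otherwise sparse. Loci with a peak were as dense, at 94.8 and 94.4 per Mb against 73.3 over the other ends. Genes without a peak were not counted here, so these densities are not set against gene density.

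**Figure D1:**
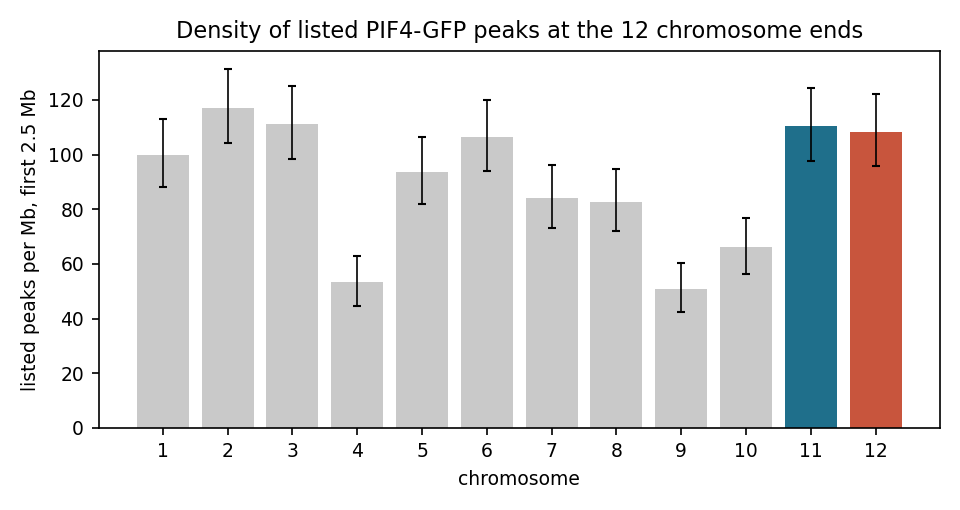
Listed PIF4-GFP peaks per Mb (y axis) in the first 2.5 Mb of each of the 12 chromosomes (x axis), with Poisson 95% intervals as error bars and chromosomes 11 and 12 in colour. The coloured bars, at 110.4 and 108.4 peaks per Mb, rank 3 and 4 behind chromosomes 2 and 3.

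The mix of peak classes was alike as well. On chromosome 11, 224 peaks were classed as promoter, 17 at a transcription end, 23 in an exon and 12 in an intron. On chromosome 12 the counts were 219, 18, 23 and 11 in the same order. Promoter peaks made up 81.2% (Wilson 95% interval 76.1 to 85.3%) and 80.8% (75.7 to 85.1%). Both shares include the 79.4% of the other ends. Promoter peaks were centred a median of 186.5 bp downstream of the start on chromosome 11 and 184 bp on chromosome 12.

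Peak widths had the same median in both copies, and the widest peaks differed. The median was 1200 bp in both copies (order-statistic 95% intervals 1000 to 1400 and 1000 to 1200 bp), with quartiles of 600 and 2000 bp on chromosome 11 and 600 and 1800 bp on chromosome 12. The peaks covered 433.6 kb (17.3%) of one copy and 409.4 kb (16.4%) of the other. Peaks wider than 4000 bp numbered 16 and 12. The widest of chromosome 12, at the promoter of LOC_Os12g01970 from 574200 to 585399, spanned 11200 bp, and the widest of chromosome 11, at the promoter of LOC_Os11g04480 from 1871200 to 1879599, spanned 8400 bp. The next on chromosome 11 were those at LOC_Os11g05394 (6200 bp) and LOC_Os11g04320 (6000 bp), and on chromosome 12 those at LOC_Os12g04240 (6800 bp) and LOC_Os12g05380 (5800 bp).

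The strand of the named loci leaned the same way in both copies. Loci on the plus strand received 40.2% of the peaks of chromosome 11 and 42.8% of those of chromosome 12, against 49.9% over the other ends. Most peak numbers of the copies were listed. Peak numbers run in order of position, and 67.0% (Wilson 62.3 to 71.4%) of the 412 numbers spanned by the end of chromosome 11 are listed. For the 436 numbers of the end of chromosome 12 the share was 62.2% (57.5 to 66.6%). Along the rest of these chromosomes 40.5% and 39.0% of the numbers are listed, and over all chromosomes 49.2%. The copies are not alone in this: at the ends of chromosomes 1, 2, 3 and 6 the shares were 59.0%, 68.3%, 61.4% and 62.0%. No source used here says what the other numbers stand for, and no listed peak is classed as intergenic.

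Along the copies, local counts did not run in parallel when compared at the same position. In 250 kb bins the chromosome 11 counts were 29, 28, 32, 21, 12, 33, 24, 34, 33 and 30, and the chromosome 12 counts 26, 23, 29, 33, 25, 24, 27, 40, 22 and 22. The sparsest bin, with 12 peaks, lay between 1000 and 1250 kb on chromosome 11, where chromosome 12 held 25. The exact Poisson intervals of these counts, 6.2 to 21.0 and 16.2 to 36.9, overlap. Across the 10 bins the Spearman correlation of the counts was -0.06, as a description of 10 neighbouring stretches of the same list. The longest stretch with no listed peak was 66.0 kb, from 964000 to 1029999 on chromosome 11, and that of chromosome 12 was 49.8 kb, from 1671600 to 1721399.

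The first listed peak of chromosome 11 was an 800 bp promoter peak at LOC_Os11g01010, from 2000 to 2799. The first of chromosome 12 was an 800 bp promoter peak at LOC_Os12g01010, from 2400 to 3199. At the far limit the last peak inside was that of LOC_Os11g05530 (2490800 to 2491799) on chromosome 11, and the first outside that of LOC_Os11g05540 (2500600 to 2501399). On chromosome 12 the limit ran through 1 locus. The exon peak of LOC_Os12g05450 (2492400 to 2496799, 4400 bp) lies inside, and its promoter peak (2497800 to 2501199, 3400 bp) outside.

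Whether the 2 copies carry peaks at corresponding genes was asked first with locus numbers. Loci with the same number in both copies and a peak in both numbered 98, which is 41.4% of the peak-bearing loci of chromosome 11 and 41.5% of those of chromosome 12. The same count over the 65 other pairs of chromosome ends ranged from 26 to 130 with a median of 72, so sharing a number is common between ends that are not known as copies. Of the 98 pairs, 63 (64.3%) lay on the same strand, against 49.7% over the other pairs of ends. In 49 of the 98 (50.0%) the nearest peaks were centred within 500 bp of the same distance from the start. Loci of other ends, paired by spacing as described below and not by number, gave 45.1%. Over the 98 pairs the Spearman correlation of the distances was 0.008. The median difference in the width of the widest peak, chromosome 12 minus chromosome 11, was 0 bp (95% interval -200 to 200 bp).

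The order of the peak-bearing loci was then aligned by the spacing of their gene starts and by strand, with no use of peak class or width. Each gene start was worked back from the centre and listed distance of the locus's nearest peak. At some loci with several peaks, such as LOC_Os12g02120, the peaks give different starts, so the start used depends on the peak taken. This pairing was chosen after the data were seen, as was its scoring. With the scoring used, 2 blocks scored above the best run between any of the other 65 pairs of ends. The first block scored 69.2 and the second 40.4, against 31.2 for the best run elsewhere, between chromosomes 2 and 3. Of 15 scorings tried on all pairs of ends, chromosomes 11 and 12 had the highest run in 9 and not in the other 6, and the one used was kept because it separated both blocks. The alignment paired 146 loci, 61.6% of the peak-bearing loci of chromosome 11 and 61.9% of those of chromosome 12. Runs between other ends held a median of 10 loci and at most 91, which is more than either block. The number of paired loci alone thus does not set the copies apart. Only 8 of the 146 pairs share a locus number.

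The first block starts near the chromosome end and holds 72 pairs. It runs from gene start 15796 (LOC_Os11g01040) to 905662 (LOC_Os11g02760) on chromosome 11, and from 14099 (LOC_Os12g01030) to 964545 (LOC_Os12g02730) on chromosome 12. The chromosome 11 gene start minus that of chromosome 12 moves from 1.7 kb at its start to -58.9 kb at its end. The second block holds 74 pairs, from LOC_Os11g03360 to LOC_Os11g04980 and from LOC_Os12g03060 to LOC_Os12g04740. There the offset starts at 111.8 kb, falls to 38.4 kb and ends at 125.0 kb. Peak density within the blocks was 115.7 and 109.4 per Mb in the first and 129.3 and 124.3 in the second, chromosome 11 given first.

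Between the blocks the copies differed in length. The stretch measured 361.8 kb on chromosome 11 and 191.2 kb on chromosome 12, yet each held 16 listed peaks at 15 loci. Its density was 44.2 per Mb (25.3 to 71.8) on chromosome 11 and 83.7 (47.8 to 136) on chromosome 12, and these intervals overlap. After the second block lay 41 peaks on chromosome 11 and 42 on chromosome 12. The alignment found shorter runs there, none above the runs elsewhere, and they were not used.

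**Figure D2:**
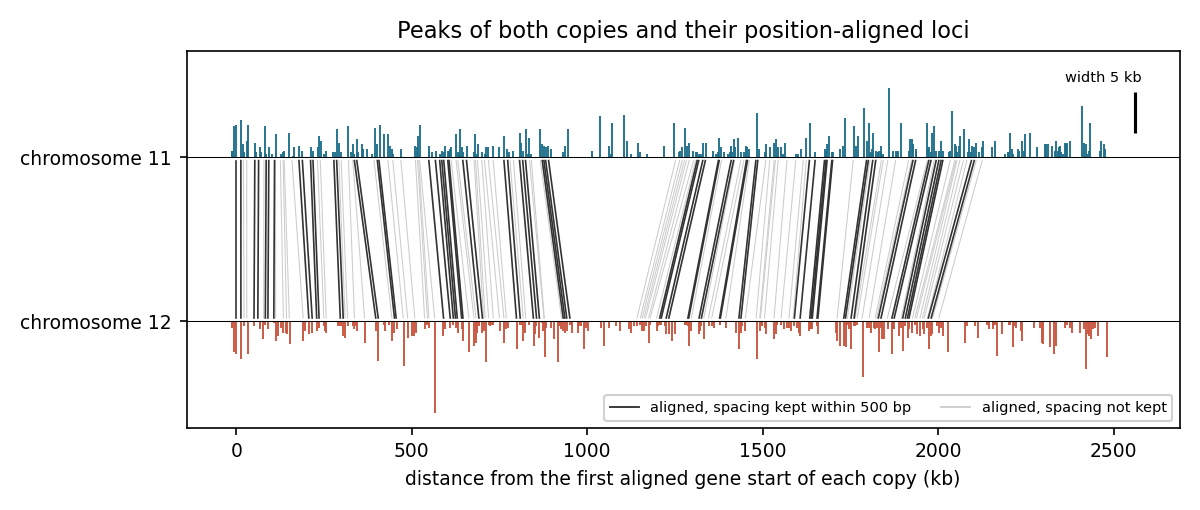
Listed peaks of chromosome 11 (top, bars upwards) and chromosome 12 (bottom, bars downwards) by distance in kb from the first aligned gene start of each copy, with bar height giving peak width (scale bar 5 kb). Lines join the 146 aligned loci, dark where spacing is kept (68) and grey where not (78), and they form 2 blocks with a stretch free of pairs between them.

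**Figure D3:**
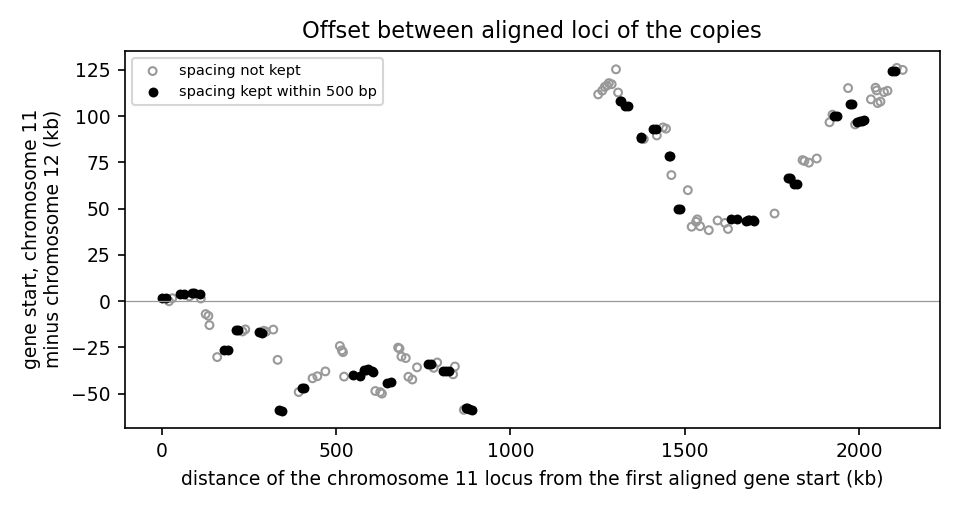
Gene start on chromosome 11 minus gene start on chromosome 12 in kb (y axis) for the 146 aligned loci, by distance of the chromosome 11 locus from the first aligned gene start in kb (x axis), filled where spacing is kept within 500 bp. The offset moves in steps, between 4.20 and -59.2 kb in the first block and between 38.4 and 126 kb in the second.

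Of the 146 pairs, 68 kept the spacing to a neighbouring pair within 500 bp, 35 in the first block and 33 in the second. In runs between other ends 447 of 992 pairs kept it, a like share. Kept spacing alone thus does not set the copies apart from other ends. These 68 were alike in class and partly in shape. The nearest peaks had the same class in 65 (95.6%, Wilson 87.8 to 98.5%): 63 pairs had promoter peaks in both copies and 2 shared another class. Their widths were equal in 19 (27.9%, 18.7 to 39.6%) and within 200 bp, the step in which widths are listed, in 36 (52.9%, 41.2 to 64.3%). The distance from peak centre to gene start was within 500 bp of the partner's in 50 (73.5%, 62.0 to 82.6%). In runs between other ends that also kept spacing, 447 pairs in all, widths were equal in 9.17% and distances within 500 bp in 45.2%. Both values lie below the intervals of the 68 pairs. The class was shared in 87.5% of those 447 pairs, close under the interval of the 68, since most peaks everywhere are promoter peaks.

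Wider peaks were split between the copies. Among the 68 pairs the peak was wider on chromosome 12 in 24, wider on chromosome 11 in 25 and equal in 19, with a median difference of 0 bp (quartiles -200 and 400 bp). Across the 68 pairs the Spearman correlation between copies was 0.57 for width and 0.66 for distance, against 0.11 and 0.05 over the 447 pairs elsewhere. Loci within a copy share 1 list, and loci elsewhere recur in several pairs, so these serve as descriptions only. Of the 78 aligned pairs with looser spacing, 9 had equal widths (11.5%, 6.19 to 20.5%), an interval that overlaps that of the 68. Their widths were within 200 bp in 20 (25.6%, 17.3 to 36.3%) and their distances within 500 bp in 39 (50.0%, 39.2 to 60.8%), and neither interval overlaps that of the 68. Over all 992 pairs between other ends, with spacing kept or not, the same shares were 8.17%, 23.6% and 45.1%. Each lies inside the interval of the 78. For the 78 pairs the correlation between copies was 0.27 for width and 0.02 for distance, against 0.02 and 0.01 over the 992.

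The counts of the 2 blocks stood as follows, and their difference was not tested. In the first block 14 of 35 pairs had equal widths (Wilson 25.6 to 56.4%), against 5 of 33 in the second (15.2%, 6.65 to 30.9%). Distances were within 500 bp in 28 of 35 (80.0%, 64.1 to 90.0%) and 22 of 33 (66.7%, 49.6 to 80.2%). All peaks of the 68 pairs, not the nearest alone, numbered 80 in each copy, and 57 (71.2%) could be matched within 500 bp of the same distance, 55 of them with the same class. This matching of all peaks was not run between other ends.

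**Figure D4:**
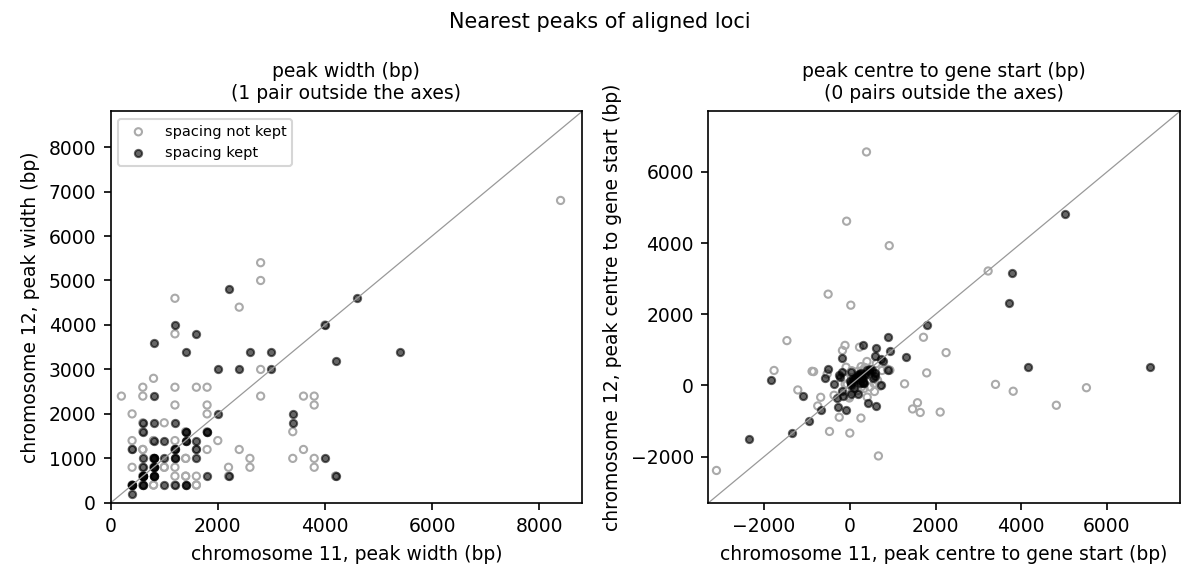
Width of the nearest peak in bp (left) and distance from its centre to the gene start in bp (right) for aligned loci, chromosome 11 on the x axis and chromosome 12 on the y axis, with the line of equality. Pairs with spacing kept (filled, 68) gather along the line more than the others (open, 78), and 1 pair, with the 11200 bp peak of LOC_Os12g01970, lies outside the left axes.

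Among the 68 pairs with kept spacing, the pair with the widest peaks in both copies and the next widest lay side by side near the chromosome end. LOC_Os11g01050 and LOC_Os12g01040 each had a single promoter peak of 4600 bp, centred at -663 and -692 bp from the start (negative values lie upstream). The neighbouring LOC_Os11g01040 and LOC_Os12g01030 each had a promoter peak of 4000 bp, centred 1797 and 1700 bp downstream. The pairs of LOC_Os11g03794 and LOC_Os11g04370, given below, come next in width, lie far from the end and are unequal. After them, LOC_Os11g02600 and LOC_Os12g02520 each had one of 3000 bp, centred at -944 and -1001 bp. In the 3 pairs given here with their values, width was equal and the distances to the start differed by less than the 200 bp step.

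Other wide pairs differed in width, and some also in place. LOC_Os11g04370 and LOC_Os12g04160 had promoter peaks of 4200 and 3200 bp centred at -1338 and -1340 bp. LOC_Os11g03794 and LOC_Os12g03601 had 5400 and 3400 bp, centred at -2360 and -1518 bp. LOC_Os11g04400 and LOC_Os12g04200 had 3000 and 3400 bp, centred at 1305 and 800 bp. In both of these pairs the centres lay more than 500 bp apart relative to the start. LOC_Os11g02510 and LOC_Os12g02430 had 2600 and 3400 bp, and LOC_Os11g03580 and LOC_Os12g03350 had 2400 and 3000 bp. At LOC_Os11g01510 and LOC_Os12g01520 both copies had 2 peaks, with 4000 and 2400 bp in sum, and the wider peak was centred at -1090 and -297 bp. Their second peak, in an exon, was 600 bp wide in both and centred 5310 and 5275 bp downstream of the start.

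Peaks away from the gene start recurred between copies at some loci. Aligned loci carried 40 peaks outside promoters on chromosome 11 and 31 on chromosome 12, and 10 of these formed matches within 500 bp of the same distance, 8 with the same class. Such matches were not counted in runs between other ends, so no background share stands beside them. LOC_Os11g01140 and LOC_Os12g01140 both had an intron peak (1200 and 1000 bp wide, 5012 and 4818 bp downstream) and an exon peak (600 and 800 bp wide, 6712 and 6518 bp downstream). In this pair both peaks are shifted by the same 194 bp. LOC_Os11g01090 and LOC_Os12g01090 both had an exon peak 4000 bp wide, centred 3228 and 3217 bp downstream, although their spacing to neighbours was not kept. LOC_Os11g02300 and LOC_Os12g02250 shared an exon peak at 3637 and 3959 bp besides promoter peaks of 600 bp each. LOC_Os11g03570 and LOC_Os12g03340 shared a 400 bp exon peak at 7116 and 7570 bp. LOC_Os11g02620 and LOC_Os12g02540 had peaks at 4355 and 4354 bp that the list classes as transcription end in one copy and exon in the other.

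Some pairs with kept spacing differed strongly in width. The largest excess on chromosome 12 was at LOC_Os11g04670 and LOC_Os12g04424, with 1200 and 4000 bp, and at LOC_Os11g04710 and LOC_Os12g04490, with 800 and 3600 bp. LOC_Os11g01620 and LOC_Os12g01700 had 2200 and 4800 bp, LOC_Os11g04590 and LOC_Os12g04350 had 1600 and 3800 bp, and LOC_Os11g04940 and LOC_Os12g04690 had 1400 and 3400 bp. In the other direction LOC_Os11g04070 and LOC_Os12g03880 had 4200 and 600 bp, and LOC_Os11g03670 and LOC_Os12g03430 had 2200 and 600 bp. The excess on chromosome 12 was led by loci of the second block in 4 of these 5 pairs. With 1 list, no error can be given for a single width.

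Class differed in 3 of the 68 pairs. LOC_Os11g01200 had an exon peak 7011 bp downstream and LOC_Os12g01200 a promoter peak. LOC_Os11g01790 had a 4000 bp peak at its transcription end and LOC_Os12g01770 a 1000 bp intron peak. LOC_Os11g03810 had a peak at its transcription end and none at its promoter, while LOC_Os12g03630 had a promoter peak of 1400 bp and an exon peak at a like distance, 4162 against 3932 bp.

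Some of the widest peaks of the copies met wide partners in the alignment, with looser spacing, and others met narrow ones. The 8400 bp peak of LOC_Os11g04480 was aligned with the 6800 bp peak of LOC_Os12g04240, which are the widest of chromosome 11 and the second of chromosome 12. The 11200 bp peak of LOC_Os12g01970 was aligned with LOC_Os11g02010, whose widest peak was 4000 bp. Other peaks wider than 4000 bp that were aligned with looser spacing had narrower partners. The widest peak of the partner ran from 600 bp (for LOC_Os11g03360) to 2800 bp (for LOC_Os12g01810). Among the 28 peaks wider than 4000 bp, 6 lay in pairs with kept spacing, and the widest peak of the partner there ranged from 600 to 4600 bp with a median of 3300 bp. LOC_Os11g01050 and LOC_Os12g01040 are each other's partner, so that pair enters these values with both members, each at 4600 bp. Wide peaks at LOC_Os11g03020 (5000 bp), LOC_Os11g03070 (4200 bp) and LOC_Os11g03110 (5200 bp) lay between the blocks, with no aligned partner.

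A single peak was assigned to 204 loci of chromosome 11 and 205 of chromosome 12, 2 peaks to 28 and 27 loci, and 3 or more to 5 and 4 loci. On chromosome 11 the latter were LOC_Os11g01074, LOC_Os11g02300, LOC_Os11g04390, LOC_Os11g04520 and LOC_Os11g05340. On chromosome 12 they were LOC_Os12g02570, LOC_Os12g02660, LOC_Os12g03340 and LOC_Os12g03899. No aligned pair had 3 or more peaks in both copies. LOC_Os11g04520 had the most, with a promoter peak and 3 intron peaks of 600, 800 and 4200 bp, the last centred 14361 bp downstream. LOC_Os12g02660 had a 5000 bp promoter peak and 2 intron peaks, the farther one centred 16101 bp downstream.

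The expression tables, which list mostly transcription factor genes, describe 28 loci of the copies, 14 on each. Of these, 17 (60.7%) had a listed peak, 10 on chromosome 11 and 7 on chromosome 12, against 888 of the 1153 loci of the tables (77.0%). WRKY factors, a plant family that acts in stress and defence responses, had peaks at 4 of 7 loci, namely LOC_Os11g02480, LOC_Os11g02530, LOC_Os11g02540 and LOC_Os12g01180. NAC factors, many of which act in drought responses, had peaks at 3 of 4. Both loci described as zinc finger homeobox factors and both with a lateral organ boundaries domain, named for its role at organ borders, had a promoter peak. Loci described as GRAS or SCARECROW, a family with roles in patterning and hormone signalling, had peaks at 3 of 4. Neither AP2 locus, neither of the 2 loci described as Myb or phosphate starvation regulator, and not the bZIP locus had one.

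By their descriptions and order, 8 pairs of these loci could be matched between the copies, a match made after the data were seen. Both members had a peak in 4 pairs, neither in 1, only the chromosome 11 member in 2 and only the chromosome 12 member in 1. The NAC pair LOC_Os11g03300, described with drought tolerance, and LOC_Os12g03040 had a 1400 bp promoter peak each. The lateral organ boundaries pair LOC_Os11g01550 and LOC_Os12g01550 had 600 bp each, and the homeobox pair LOC_Os11g03420 and LOC_Os12g03110 had 1400 and 600 bp. At the GRAS pair both copies had a 2200 bp exon peak, and LOC_Os11g04570 also a 2200 bp promoter peak that LOC_Os12g04370 lacked. The SCARECROW pair was unequal: LOC_Os11g03110 had a 5200 bp promoter peak and LOC_Os12g02870 none. The alignment by position holds only loci with a peak, so no more than 4 of the 8 pairs could appear in it. It had found 2 of these 4, the lateral organ boundaries and the homeobox pair, both with looser spacing. No pair matched by description is thus among the pairs with kept spacing. The NAC pair was not aligned. The alignment had joined LOC_Os11g04570 to another locus, LOC_Os12g04340. As matched by description, the GRAS pair crosses the kept pairs of LOC_Os11g04590 and LOC_Os11g04600. The GRAS match and those kept pairs therefore cannot all follow one order. Single aligned pairs are thus positions that correspond in a run, not genes shown to be paralogs.

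Whether genes of the copies differed in expression between PIF4-GFP and GFP mock was asked with the deposited FPKM tables. Totals recovered from them ran from 14933740 to 17919095 reads per library. The row names are labels only: 191 of 917 rows with a resolved length (20.8%) imply a length longer than the gene they name. Across those 917 rows the Spearman correlation of implied length and gene span was 0.02. The copies have 31 rows, 15 on chromosome 11 and 16 on chromosome 12, of which 8 read 0 in every library. With limma on log2(FPKM + 1), 0 of the 18 rows tested passed an adjusted p of 0.05, and 0 of all 847 rows (0%), with 33 rows of all and 0 of the 18 at an unadjusted p under 0.05. Replicates are not said to come from separate plants, so these p-values measure the spread between samples only.

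Of the 18 rows, 15 had a lower mean in PIF4-GFP and 3 a higher one. With each library centred on its median the split was 8 lower and 10 higher, so no common direction is read from it. In 2 rows the groups did not overlap, beside 9.09% of all rows tested, with 7.91% all lower and 1.18% all higher. With 3 libraries in each group the exact permutation test cannot go below 0.1.

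Os12g0105600, the row of LOC_Os12g01490, described as similar to a phosphate starvation regulator, read 16.2, 14.7 and 17.7 FPKM in PIF4-GFP and 18.8, 18.2 and 18.9 in GFP mock. All 3 PIF4-GFP values lay under the mock values, and the log2 difference was -0.20 with an SE of 0.09 (n = 3 per group; exact permutation p = 0.1; adjusted p from limma 0.895). That locus has no listed peak. Os12g0116600, the row of LOC_Os12g02440, described as similar to a transcription factor fragment, read 12.99, 12.5 and 12.6 FPKM in PIF4-GFP and 11.1, 11.8 and 11.9 in GFP mock. Here all PIF4-GFP values lay above, and the log2 difference was 0.12 with an SE of 0.09 (adjusted p from limma 0.895). Its locus has a 400 bp promoter peak, from 822800 to 823199. That peak lies upstream of the gene span listed for this row, 817004 to 820412 on the minus strand. The aligned partner of the locus is LOC_Os11g02530, a WRKY locus with a 1000 bp promoter peak. The row named for that partner, Os11g0117500, reads 0 in every library.

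In the other rows with the smallest p the groups overlapped. Os11g0152700, the row of LOC_Os11g05480 (RefSeq symbol TGAL4, a bZIP factor), read 24.7, 26.1 and 27.0 FPKM in PIF4-GFP and 30.9, 27.0 and 28.0 in GFP mock. Os12g0126300, an AP2 row, read 66.8, 54.8 and 65.8 FPKM against 68.0, 63.1 and 73.9. Os12g0116400, a WRKY row, read 30.03, 29.1 and 33.8 FPKM against 33.5, 31.0 and 34.5. Os11g0106900, the lateral organ boundaries row of chromosome 11, read 14.96, 12.7 and 16.9 FPKM against 16.8, 16.1 and 15.3. None of these 4 passed the test, with a limma adjusted p of 0.895 for each.

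Matched rows of the 2 copies often stood at different levels, as the tables give them. The lateral organ boundaries rows read 12.7 to 16.9 FPKM on chromosome 11 and 1.995 to 2.94 on chromosome 12. The NAC row of chromosome 12 (Os12g0123700) read 147 to 181 FPKM, and its counterpart on chromosome 11 (Os11g0126900) 0.162 to 0.529. Since the rows' lengths often disagree with their names, these values are not assigned to the genes. The other 12 rows tested had log2 differences between -0.11 and 0.07, all with overlapping groups.

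**Figure D5:**
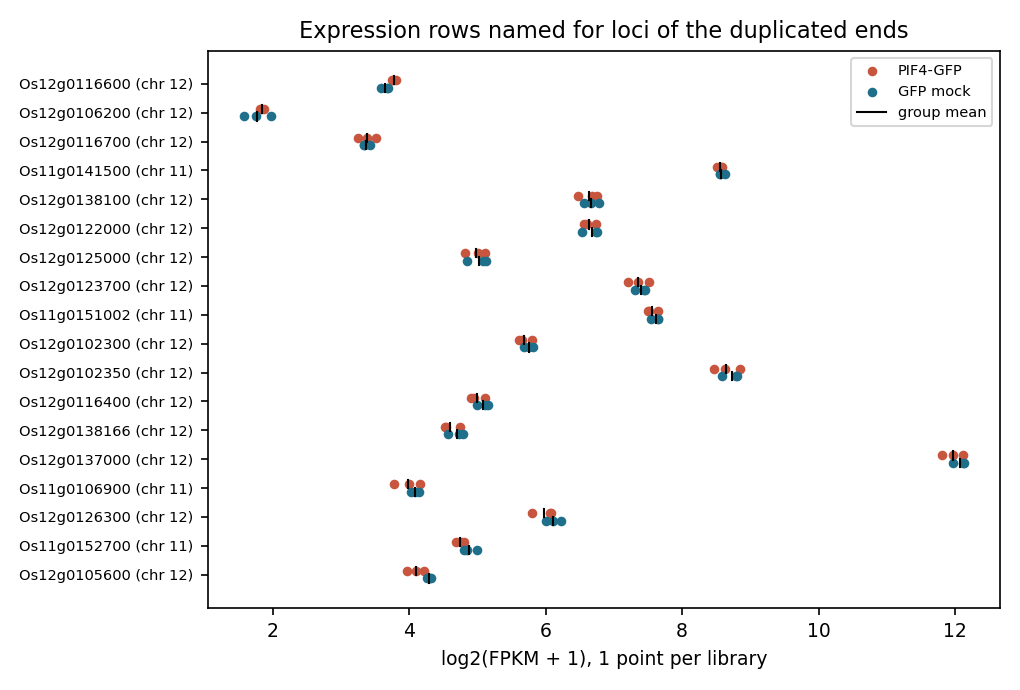
Values as log2(FPKM + 1) (x axis) in each of the 3 PIF4-GFP and 3 GFP mock libraries for the 18 tested rows (y axis), with short black lines at the group means and rows ordered by the log2 difference. The groups overlap in all but Os12g0105600 (PIF4-GFP lower) and Os12g0116600 (PIF4-GFP higher).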

How the data were processed

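Peaks are the authors' own calls. The deposited list gives positions, class, locus and a distance score in bp, as the file shows. The caller, its threshold, any pooling and the rice build: not given in the sources used here. The submitters' processing notes name Bowtie 0.12.2, HISAT2 2.0 and StringTie 1.3.0, and the mouse build mm8. The deposited expression values are FPKM per gene and library, a unit taken from the values.

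Peaks at or before 2500000 were counted with Poisson, Wilson and order-statistic intervals (95%). Loci were aligned by dynamic programming on gene-start spacing and strand: steps up to 60 kb, offsets up to 150 kb, a cost of 0.7 per pair and 1.5 per skipped locus, tested on simulated copies. This scoring was chosen from 15 tried on all pairs of ends; further ones were tried on some pairs only. Spacing was called kept within 500 bp of a neighbouring pair's offset. limma 3.58.1 (R 4.3.3) was run on log2(FPKM + 1) over all rows with at least 1 FPKM in 3 samples, with Benjamini-Hochberg adjustment. Python 3.11.15, scipy 1.17.1 and pandas 2.3.3 were used, and RefSeq symbols (ASM3414082v1) matched 26 of 31 rows. Members, lists and tests were chosen with earlier results of these data known; family words for GRAS, AP2, lateral organ boundaries and phosphate starvation were added after the descriptions were read. The rule for named pairs (widest in both copies, largest width difference, differing class) was applied to aligned pairs with kept spacing. Alternatives covered window, minimum width, pairing, pseudocount, filter, centring, replicate block and left-out replicates.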

Additional observations from a re-analysis of the deposited data

How the results depend on the processing

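With peaks at least 800 bp wide, density fell to 80.4 peaks per Mb on chromosome 11 and 78.4 on chromosome 12, the promoter share of chromosome 11 rose to 87.1%, and loci with the same number and a peak in both copies fell from 98 to 60. Shorter windows kept density, promoter share and median width within their intervals. Like distances numbered 28 of the 98 within 200 bp, and 89 of 146 with pairing by position, which gave 146 pairs, or 150 with a lower cost of skipped loci. With a steeper spacing scale together with a higher cost per pair (1 in place of 0.7), also among the 15 scorings, only the first block (72 pairs) exceeded the runs elsewhere, so the second block depends on the scoring. In 14 of the 15 scorings the run of chromosomes 11 and 12 had the higher share of equal widths; the exception, with no cost of skipped loci, paired LOC_Os11g04170 with LOC_Os12g01880. The width difference stayed at 0 bp in all alternatives run. Pairing by protein match and a motif search were not run, as no protein or genome sequence was used.

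Whether replicate numbers pair the samples is not settled. Deviations of same-numbered libraries correlated at 0.11, 0.16 and -0.09, and those of differently numbered ones from -0.27 to 0.20. A limma fit with the replicate block called 1 row of 847, none in the copies. In that fit 89 rows had an unadjusted p under 0.05, 1 of them in the copies, against 33 without the block. Leaving out 1 replicate in turn gave 0 to 2 calls, with 2 without PIF4-GFP replicate 2. For the 18 rows no alternative reached an adjusted p under 0.05 (lowest 0.263), and 19 of 180 values changed sign; the cause was not tested. Centring gave 0.015 (Os12g0102300), 0.024 (Os11g0151002), 0.039 (Os12g0122000), 0.031 (Os12g0123700), 0.038 (Os12g0125000), 0.062 (Os11g0141500) and 0.050 (Os12g0138100). Leaving out 1 replicate gave log2 differences from -0.18 to 0.0072 for Os12g0102350, -0.026 to 0.17 for Os12g0106200, -0.054 to 0.078 for Os12g0116700 and -0.13 to 0.027 for Os12g0123700. They ran from -0.13 to 0.042 for Os12g0125000, -0.032 to 0.0076 for Os11g0141500 and -0.088 to 0.051 for Os12g0138100.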
